A study of Erigeron canadensis with 32 samples.

Results

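Pectin-modifying enzyme genes were followed in leaves of Erigeron canadensis (horseweed) after treatment with synthetic auxin herbicides. The genes were chosen from the annotation of the count table: a gene was a member where the description of its best Arabidopsis thaliana hit contained "pectin", "pectate lyase", "polygalacturonase" or "galacturonosyltransferase", with upper and lower case treated alike. This rule gave 252 of the 54498 genes in the table, and it used no expression value. RNA-seq was done on leaves of a glyphosate-resistant biotype at the rosette stage. Plants received 2,4-D (a phenoxyacetic acid), dicamba (a benzoic acid), halauxifen-methyl (an arylpicolinate) or water, each with surfactant, and were sampled 6 or 1 hours after treatment (HAT). The doses of the herbicides differed, so a difference between herbicides is not one at equal dose. The 8 groups had 4 plants each, and each plant gave 1 of the 32 libraries, so no plant was sampled at both times.

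Pectin is the acidic polysaccharide of the plant cell wall. Its homogalacturonan backbone is built in the Golgi by galacturonosyltransferases and secreted in a methylesterified form. Pectin methylesterases (PMEs) remove the methyl groups in the wall, where PME inhibitors hold them in check, and the demethylesterified chains can be bound by calcium or cut by polygalacturonases and pectate lyases. Pectin acetylesterases remove acetyl groups, and polygalacturonase inhibiting proteins (PGIPs) bind polygalacturonases, in particular those of fungi and insects. Auxin is known for its effects on wall loosening and cell expansion.

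Total counts per library ranged from 12588842 to 29111958 (median 18168133.5), and levels are given as CPM, counts scaled to a common normalised library total. Correlations of log2 CPM within groups ranged from 0.827 to 0.958 over 48 pairs of libraries. Replicate 1 of water at 6 HAT stood apart on the second principal component. In this library 457 genes had 0 counts although each of the other 3 water libraries of 6 HAT had at least 50, against 0 to 56 such genes in any other library. The 4 members among them were HW_10929_g, HW_26105_g, HW_27072_g and HW_44903_g, and the counts of calls at 6 HAT are therefore given with and without this library. Markers of leaf mesophyll were abundant, with summed levels of 45071 to 80443 CPM in water at 6 HAT, while the 12 root marker genes summed to at most 1.77 CPM in any library, with WOX5 and RHD6 among those at 0.

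The members fell into 8 classes by the Arabidopsis hit. There were 72 PMEs, 51 polygalacturonases or other proteins of the pectin lyase fold, 45 inhibitors of PMEs or invertases, 32 galacturonosyltransferases, 30 pectate lyases, 15 pectin acetylesterases, 2 PGIPs and 5 proteins of unknown function hitting AT1G02816, whose description mentions pectinesterase. Together the 252 members hit 97 Arabidopsis loci, so many are copies within a family. In the assembly 52 members lay next to another member in 23 runs of up to 5 genes. No counts at all were found for 101 members (40.1%), compared with 46.9% of all genes in the table. Of the 151 members with counts, 72 passed the low-count filter in at least 1 comparison with water and 80 in at least 1 of all 16 comparisons. The other 71 had too few counts for any test.

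Expression was concentrated in a few members. The 3 highest held 41.9% and the 10 highest 71.6% of the summed CPM of all members. Per kb of coding sequence, HW_6696_g (AT5G62350, an inhibitor of PMEs or invertases) averaged 1270 CPM per kb over the 32 libraries, with single libraries between 669 and 1979 CPM per kb. It was followed by HW_35762_g (AT1G62770, of the same family) with 379 CPM per kb and by HW_23049_g (PGIP1) with 301 CPM per kb. The ranges over libraries of HW_35762_g (140 to 645 CPM per kb) and HW_23049_g (51.6 to 775 CPM per kb) overlapped. These ranges pool all groups, and the order of these 2 genes differed between groups. In water at 6 HAT HW_35762_g had 315 to 441 CPM and HW_23049_g 51.4 to 72.3 CPM. After 2,4-D at 6 HAT they had 310 to 390 CPM and 660 to 772 CPM. The most abundant pectate lyase was HW_44603_g (AT4G24780) with 159 CPM per kb, the most abundant PME was HW_49346_g (PME3) with 149 CPM per kb, and the most abundant protein of the pectin lyase fold was HW_24759_g (AT4G23820) with 133 CPM per kb. The ranges of these 3 genes over libraries overlapped as well.

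At 6 HAT, 3 polygalacturonase family genes, 2 pectate lyases, 2 PMEs and the most abundant member, the inhibitor HW_6696_g, fell with every herbicide. PGIP1 was strongly higher with every herbicide. HW_51770_g, of the same class as the 3 polygalacturonase family genes, was also higher, with log2 fold changes of 1.12, 1.02 and 0.69. After 2,4-D, 3 of 66 tested members rose (4.55%) and 18 fell (27.3%), against 10.3% of all 14299 tested genes that rose and 9.41% that fell. After dicamba, 2 of 66 members rose (3.03%) and 12 fell (18.2%), against 5.64% and 3.96% of all genes. After halauxifen-methyl, 6 of 66 members rose (9.09%) and 11 fell (16.7%), against 8.55% and 6.13% of all genes. The median log2 fold change over tested members was -0.51 for 2,4-D, -0.49 for dicamba and -0.35 for halauxifen-methyl, while the medians over all tested genes were 0.02, 0.06 and 0.05. Calls are at an adjusted p of 0.05 or less in the quasi-likelihood test of edgeR, adjusted by the Benjamini-Hochberg method over all tested genes. Rose and fell mean higher or lower than in water of the same time. The 4 herbicide and 4 water libraries did not overlap for 19 of the 21 called members after 2,4-D, 13 of 14 after dicamba and 17 of 17 after halauxifen-methyl, that is 90.5%, 92.9% and 100%, near the 94.4%, 96.1% and 95.1% of all called genes. The 3 comparisons share the same 4 water libraries. Without replicate 1 of water, 30 members were called after 2,4-D (7 higher, 23 lower), 16 after dicamba (2 higher, 14 lower) and 20 after halauxifen-methyl (7 higher, 13 lower), and these included 21 of 21, 13 of 14 and 15 of 17 of the calls made with all libraries. Calls over all genes moved in the same direction without this library, to 25.7% for 2,4-D (19.7% with all libraries), 9.85% for dicamba (9.6%) and 17.5% for halauxifen-methyl (14.7%). Without replicate 3 of water, 9 members were called after dicamba, and the share of all genes called was 6.3%.

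**Figure D1:**
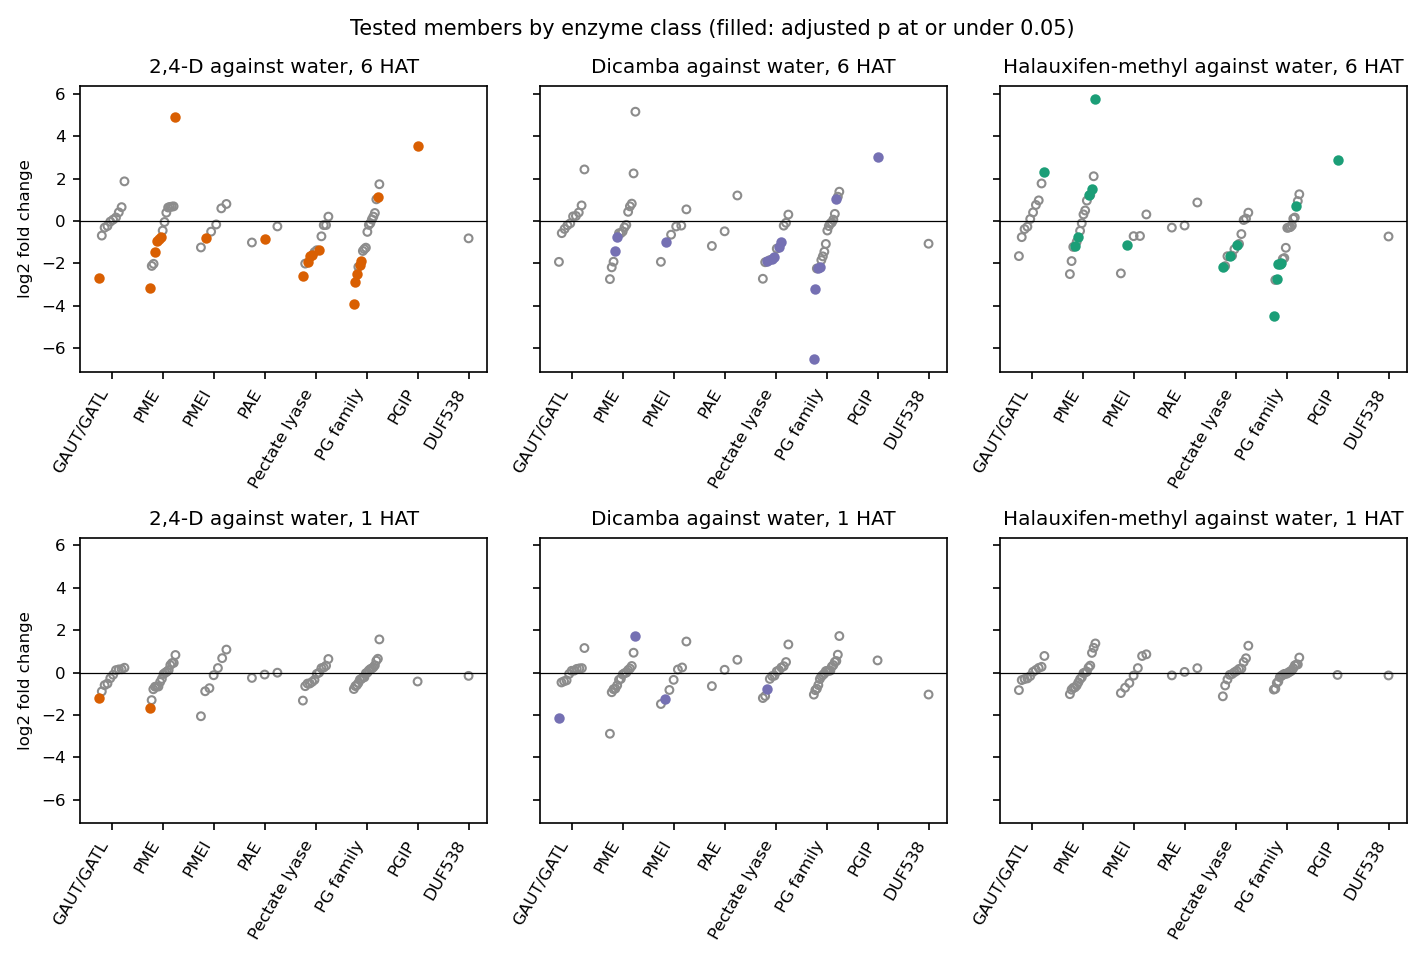
Log2 fold change of each tested member against water of the same time, by enzyme class, for each herbicide (columns) at 6 HAT and 1 HAT (rows). GAUT/GATL are galacturonosyltransferases, PMEI inhibitors of PMEs or invertases, PAE pectin acetylesterases, PG family polygalacturonases and other pectin lyase-fold proteins, and DUF538 the AT1G02816 group. Filled points passed an adjusted p of 0.05, and at 6 HAT most filled points of the pectate lyases and the polygalacturonase family lie below 0, and PGIP1 lies at 3.55, 3.04 and 2.87. The highest PME point at 6 HAT is HW_20763_g, whose fitted value depends on the prior count.

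The 15 leaf mesophyll marker genes moved in the same comparisons. At 6 HAT their summed level was 25184 to 37303 CPM after 2,4-D, 20676 to 27606 CPM after dicamba and 12123 to 30693 CPM after halauxifen-methyl, against 45071 to 80443 CPM in water. Of 12 tested marker genes, 8, 8 and 10 fell by the same edgeR test, against 9.41%, 3.96% and 6.13% of all tested genes. At 1 HAT the ranges of the herbicide groups (from 47908 to 131565 CPM) overlapped that of water (75620 to 109604 CPM). In leaves measured in bulk, fewer cells of a type and less RNA per cell cannot be told apart, and the part of the mesophyll markers in the results on pectin genes was not tested.

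At 6 HAT 10 members passed the test with all 3 herbicides, 2 higher and 8 lower, a further 6 passed with exactly 2 herbicides and 10 with exactly 1. The shares of all genes called with 3, 2 or 1 herbicides were not counted, and the 3 comparisons share their water libraries. These counts therefore do not set the members apart from other genes. The 10 shared members came from the PGIPs, the polygalacturonase family, the pectate lyases, the PMEs and the inhibitors of PMEs or invertases. They are described by class with the members called with fewer herbicides.

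**Figure D2:**
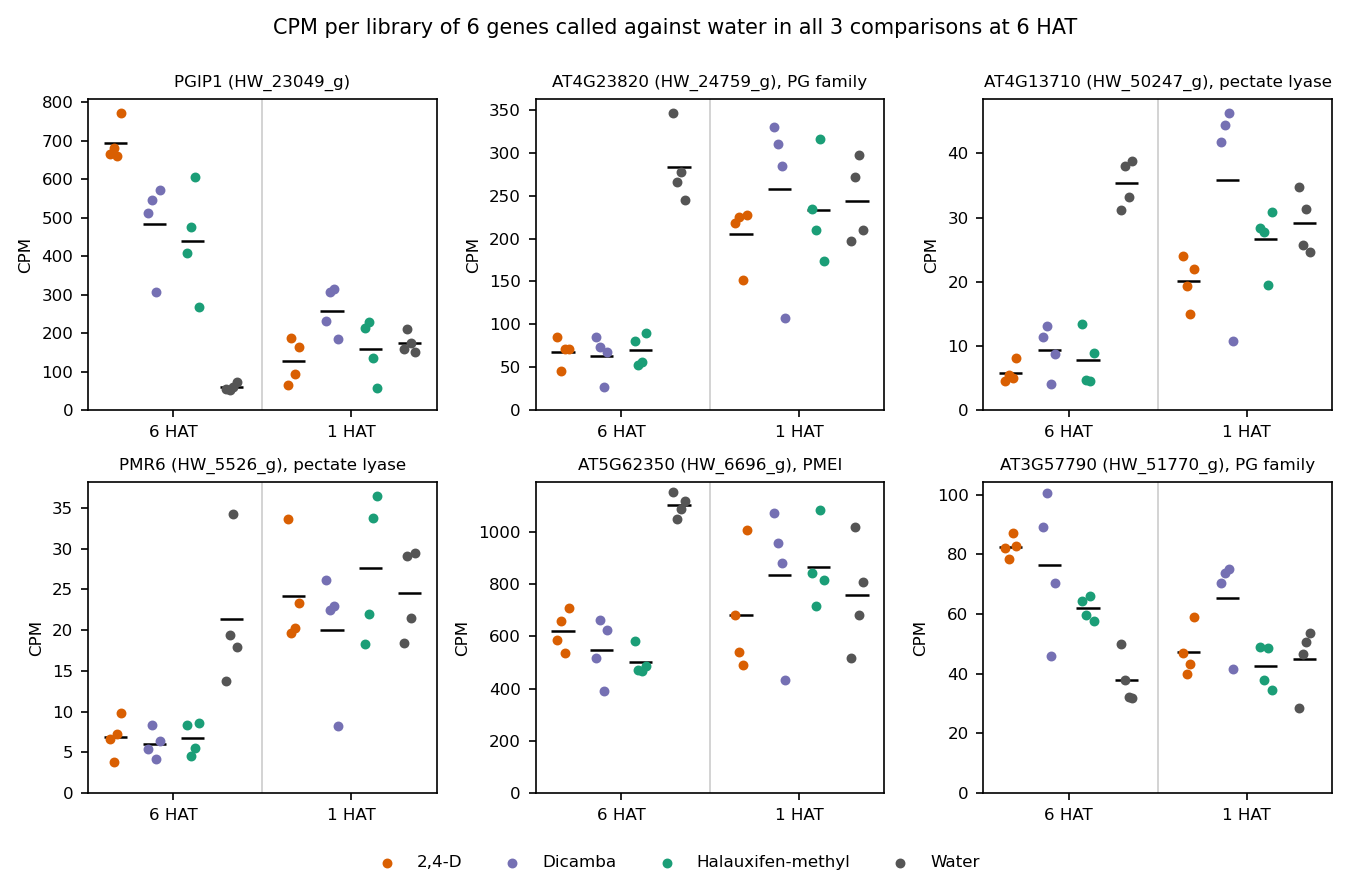
CPM per library of 6 of the 10 members called with all 3 herbicides at 6 HAT, with the mean of 4 libraries as a bar, at 6 HAT and 1 HAT. At 6 HAT PGIP1 lies between 268 and 772 CPM in all herbicide libraries and between 51.4 and 72.3 CPM in water, and HW_6696_g between 389 and 709 CPM in herbicide libraries and between 1048 and 1152 CPM in water.

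PGIP1 (HW_23049_g, a single-exon gene with a coding length of 996 bases) encodes a leucine-rich repeat protein that in Arabidopsis inhibits fungal polygalacturonases. At 6 HAT its level was 665, 680.4, 659.9 and 772 CPM after 2,4-D, 513, 546, 308 and 571 CPM after dicamba and 408, 477, 606 and 268 CPM after halauxifen-methyl, against 55, 51.4, 59.9 and 72.3 CPM in water. Every herbicide library was above every water library. The log2 fold changes were 3.55 (SE 0.14, adjusted p = 6.8e-08) after 2,4-D, 3.04 (SE 0.24, adjusted p = 2.2e-05) after dicamba and 2.87 (SE 0.24, adjusted p = 6.5e-05) after halauxifen-methyl, and they were 3.53, 3.02 and 2.85 without replicate 1 of water. At 1 HAT it did not pass the test with any herbicide, with 65.2 to 187 CPM after 2,4-D, 184 to 313 CPM after dicamba and 57.7 to 228 CPM after halauxifen-methyl, against 151 to 211 CPM in water. Water-treated leaves themselves had less PGIP1 RNA at 6 HAT than at 1 HAT (log2 fold change -1.57, SE 0.17, adjusted p = 0.00014), so the herbicide difference at 6 HAT was measured against a lower control level. The second PGIP gene, HW_42970_g, has the same coding length and had 18 counts in all over the 32 libraries. It was not tested.

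Among the polygalacturonase and pectin lyase-fold proteins, 5 of 18 tested members fell with 2,4-D, 4 with dicamba and 5 with halauxifen-methyl, and 1 rose with each. Of all tested genes, 9.41%, 3.96% and 6.13% fell and 10.3%, 5.64% and 8.55% rose. The class medians were -0.88, -0.76 and -0.79 on the log2 scale. The summed level of the class was 336 to 391 CPM after 2,4-D, 244 to 401 CPM after dicamba and 260.3 to 332 CPM after halauxifen-methyl, against 617 to 656 CPM in water.

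HW_24759_g and HW_16914_g both hit AT4G23820, a member of the polygalacturonase family, and both fell with every herbicide. HW_24759_g had 84.8, 45.8, 71.4 and 70.8 CPM after 2,4-D, 85, 73.2, 27.1 and 67.6 CPM after dicamba and 80.9, 52.1, 56.5 and 90.4 CPM after halauxifen-methyl, against 346, 266, 277 and 245 CPM in water. Its herbicide and water libraries were far apart at 6 HAT, with log2 fold changes of -2.06 (SE 0.19, adjusted p = 2e-05), -2.15 (SE 0.32, adjusted p = 0.0013) and -2.02 (SE 0.23, adjusted p = 0.00032). HW_16914_g, at a lower level, had 12.8 to 18 CPM after 2,4-D, 11.7 to 14.6 CPM after dicamba and 4.77 to 13.3 CPM after halauxifen-methyl, against 38.6 to 74.8 CPM in water. Its log2 fold changes were -1.87 (SE 0.21, adjusted p = 8.2e-05), -2.22 (SE 0.24, adjusted p = 0.00014) and -2.74 (SE 0.35, adjusted p = 0.00072).

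HW_23172_g (AT1G60590, polygalacturonase family) was close to absent after treatment. At 6 HAT its level was 2.05, 2.03, 0.277 and 0.321 CPM after 2,4-D, 0.71, 0, 0.0558 and 0 CPM after dicamba and 0.26, 0, 0.414 and 2.42 CPM after halauxifen-methyl, against 28.1, 16.6, 10.1 and 15.7 CPM in water. The groups did not overlap. The log2 fold changes were -3.90 (SE 0.66, adjusted p = 0.0015), -6.51 (SE 1.07, adjusted p = 0.0025) and -4.49 (SE 1.02, adjusted p = 0.015), of which the dicamba value rests on 14, 0, 1 and 0 counts and depends on the prior count of the fit. The other tested copy of AT1G60590, HW_31909_g, was at 27.7 to 50.2 CPM in water and fell after 2,4-D (0.214 to 13.5 CPM, log2 fold change -2.51, adjusted p = 0.028) and after dicamba (2.06 to 6.28 CPM, log2 fold change -3.20, adjusted p = 0.00021). After halauxifen-methyl its libraries ranged from 0 to 16.9 CPM, and the difference did not pass the test (log2 fold change -2.78, SE 1.16, adjusted p = 0.15). Its 2,4-D call was lost without replicate 2 or 4 of water or replicate 2 or 3 of 2,4-D (adjusted p up to 0.088, the highest over all alternatives tried, as elsewhere where a value is given with "up to").

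The 1 member of this class that rose was HW_51770_g, which hits AT3G57790. Its level at 6 HAT was 82.2, 78.5, 87 and 82.7 CPM after 2,4-D, 89.1, 101, 46.1 and 70.3 CPM after dicamba and 64.2, 59.8, 66.1 and 57.6 CPM after halauxifen-methyl, against 50.1, 38, 32.2 and 31.9 CPM in water. One dicamba library, replicate 3, lay within the range of water. The log2 fold changes were 1.12 (SE 0.17, adjusted p = 0.00055), 1.02 (SE 0.27, adjusted p = 0.034) and 0.69 (SE 0.18, adjusted p = 0.028). The dicamba and halauxifen-methyl calls were both lost without replicate 2, 3 or 4 of water, and also without replicate 1, 2 or 4 of dicamba or replicate 1, 2 or 3 of halauxifen-methyl (adjusted p up to 0.11 and 0.09). HW_28609_g (AT1G48100) passed only in halauxifen-methyl leaves, with 1.18 to 4.4 CPM against 6.72 to 12 CPM in water and a log2 fold change of -1.96 (adjusted p = 0.026). After 2,4-D it had a log2 fold change of -1.32 (adjusted p = 0.076) and after dicamba -1.67 (adjusted p = 0.11), and the difference between herbicides was not called by the tests of pairs. Its call was lost without any 1 of water replicates 2 to 4 or halauxifen-methyl replicates 1 to 3 (adjusted p up to 0.086). HW_11606_g (AT4G20040) was lower after 2,4-D (0 to 1.76 CPM) and halauxifen-methyl (0.839 to 3.21 CPM) than in water (5.07 to 13.2 CPM), with log2 fold changes of -2.86 and -2.01. Leaving out single libraries, replicate 1 of water among them for halauxifen-methyl, ended both calls (adjusted p up to 0.1 in each).

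Pectate lyases cut demethylesterified pectin by elimination. Of the 12 tested, 5 fell with 2,4-D, 5 with dicamba and 3 with halauxifen-methyl, against 9.41%, 3.96% and 6.13% of all genes. The class medians were -1.42, -1.50 and -1.22, below those of every other class with at least 5 tested members. Summed levels were 251 to 404 CPM after 2,4-D, 305 to 368 CPM after dicamba and 379 to 622 CPM after halauxifen-methyl, against 574 to 779.8 CPM in water, so the ranges of halauxifen-methyl and water overlapped.

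HW_50247_g (AT4G13710) fell with every herbicide. Its level was 4.55, 5.44, 5.04 and 8.13 CPM after 2,4-D, 11.4, 13.1, 4.13 and 8.71 CPM after dicamba and 13.5, 4.65, 4.49 and 8.84 CPM after halauxifen-methyl, against 31.2, 38, 33.2 and 38.8 CPM in water. No herbicide library reached the lowest water library, and the log2 fold changes were -2.60 (SE 0.22, adjusted p = 1e-05), -1.90 (SE 0.33, adjusted p = 0.0037) and -2.16 (SE 0.35, adjusted p = 0.0029). HW_5526_g hits PMR6, named in Arabidopsis for powdery mildew resistance of its mutant. It had 3.84 to 9.89 CPM after 2,4-D, 4.24 to 8.37 CPM after dicamba and 4.54 to 8.6 CPM after halauxifen-methyl, against 13.7 to 34.3 CPM in water. The log2 fold changes were -1.62, -1.78 and -1.65, with adjusted p = 0.0066, 0.0089 and 0.011 in edgeR's test.

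The other tested copies of AT4G13710 were HW_15399_g and HW_15187_g. HW_15399_g had 10.6, 15.9, 8.41 and 3.8 CPM after 2,4-D, 15.7, 10.5, 7.98 and 15.2 CPM after dicamba and 14.5, 9.99, 8.22 and 31.7 CPM after halauxifen-methyl, against 28.4, 19.6, 24.2 and 27.3 CPM in water. It passed after 2,4-D (log2 fold change -1.35, SE 0.36, adjusted p = 0.022) and dicamba (-0.996, adjusted p = 0.0497), calls that leaving out single libraries ended (up to 0.18 and 0.38), among them replicate 4 of water for both and, for dicamba, any 1 library. HW_15187_g, the most abundant copy, had log2 fold changes of -0.19, -0.22 and 0.40 with adjusted p of 0.54, 0.57 and 0.11 in edgeR's test.

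The most abundant pectate lyase, HW_44603_g, had 76.8, 99.5, 56 and 124 CPM after 2,4-D, 68.1, 129, 129.9 and 95.9 CPM after dicamba and 145, 288, 174 and 57.1 CPM after halauxifen-methyl, against 418, 245, 427 and 293 CPM in water. It was lower than in water after 2,4-D (log2 fold change -1.95, SE 0.27, adjusted p = 0.0003) and dicamba (-1.71, SE 0.26, adjusted p = 0.0016). After halauxifen-methyl, where replicate 2 lay inside the range of water, the log2 fold change was -1.08 (SE 0.40, adjusted p = 0.11). At 1 HAT it had 44.6 to 99.5 CPM in water, so the differences at 6 HAT were measured against a higher control level. The herbicide groups at 1 HAT had 27.8 to 85.5 CPM (2,4-D), 88 to 212 CPM (dicamba) and 82.9 to 254 CPM (halauxifen-methyl). HW_17486_g (AT5G04310) passed after dicamba (7.59 to 15.1 CPM, log2 fold change -1.22) and halauxifen-methyl (9.04 to 17.5 CPM, -1.11), against 22.3 to 31.6 CPM in water. At 1 HAT HW_17486_g had 3.71 to 12.2 CPM in water, so its control level was also higher at 6 HAT. HW_12708_g (AT3G27400) passed after 2,4-D alone (1.6 to 5.92 CPM, against 8.96 to 13.4 CPM in water, log2 fold change -1.63, adjusted p = 0.016), and whether the herbicides differed was read from the tests of pairs, in which it was not called. The HW_12708_g call was lost without replicate 3 of water or replicate 3 or 4 of 2,4-D (adjusted p up to 0.058), and the dicamba call of HW_17486_g without replicate 3 of water or replicate 1 of dicamba (up to 0.058). The halauxifen-methyl call of HW_17486_g was lost in the fit of all 32 libraries (adjusted p = 0.07).

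Inhibitors of PMEs or invertases share a fold, and sequence alone does not tell which enzyme a member inhibits. Of 6 tested with 2,4-D, 6 with dicamba and 5 with halauxifen-methyl, 1 fell in each, against 9.41%, 3.96% and 6.13% of all genes. That member was HW_6696_g, the most abundant member of all. Its level was 586, 657, 536 and 709 CPM after 2,4-D, 518, 663, 389 and 624 CPM after dicamba and 584, 473, 467 and 485 CPM after halauxifen-methyl, against 1152, 1048, 1086 and 1120.0 CPM in water. All 12 herbicide libraries lay below all water libraries, with log2 fold changes of -0.82 (SE 0.13, adjusted p = 0.00077), -0.99 (SE 0.20, adjusted p = 0.0084) and -1.14 (SE 0.15, adjusted p = 0.0009). HW_35762_g, second in level, had log2 fold changes of -0.16, -0.22 and -0.71 with adjusted p of 0.49, 0.68 and 0.1 in edgeR's test.

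PMEs divided by member. After 2,4-D 1 of 15 tested rose and 5 fell, after dicamba 2 of 15 fell, and after halauxifen-methyl 3 of 16 rose and 2 fell. Of all tested genes, 10.3% rose and 9.41% fell after 2,4-D, 3.96% fell after dicamba, and 8.55% rose and 6.13% fell after halauxifen-methyl. Class medians were -0.45, -0.49 and 0.10. The summed level was 481 to 572 CPM after 2,4-D and 561 to 725 CPM after dicamba, both below the 762 to 991 CPM of water, and 953 to 1323 CPM after halauxifen-methyl, where the range overlapped that of water.

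**Figure D3:**
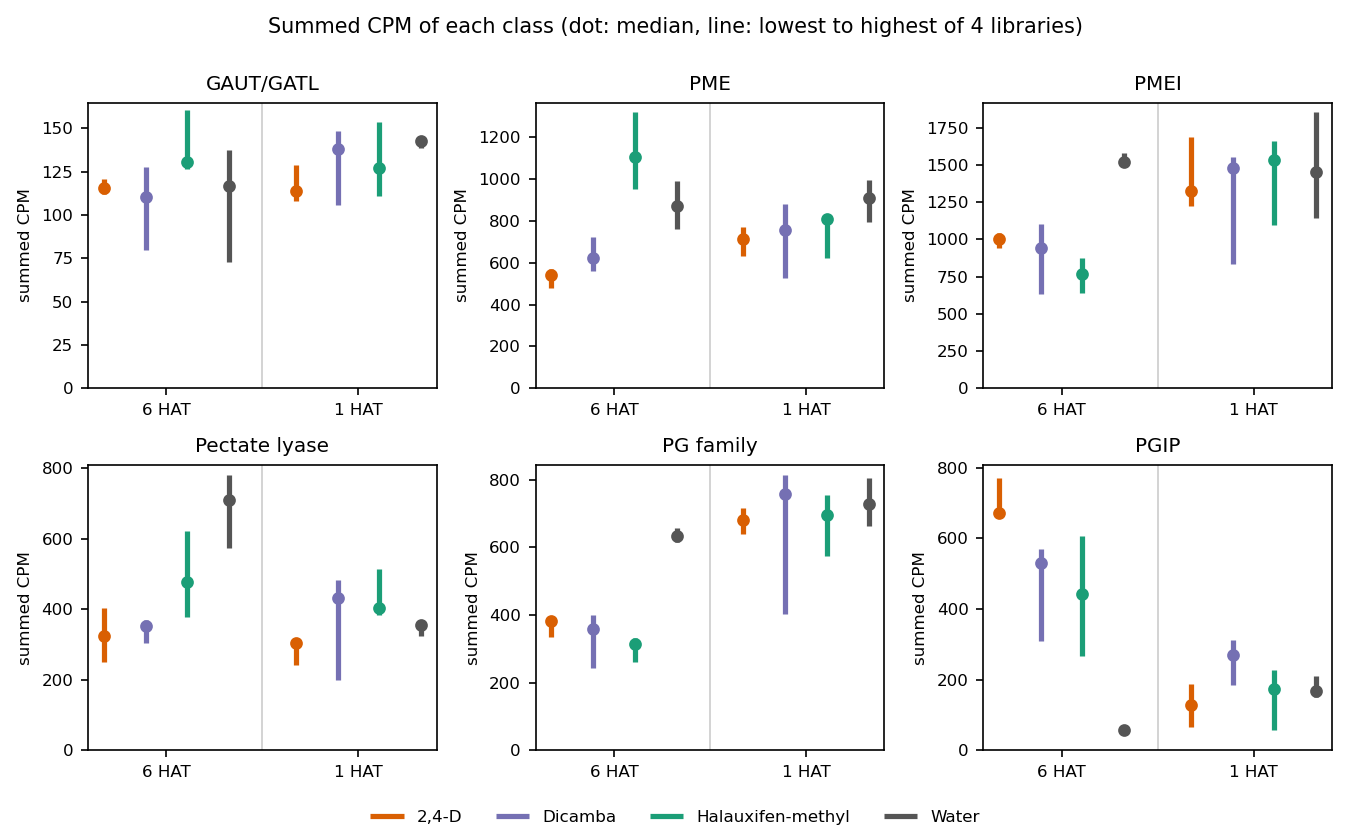
Summed CPM of 6 classes in each group, as the median (dot) and the lowest to highest (line) of 4 libraries, at 6 HAT and 1 HAT. At 6 HAT the polygalacturonase family (PG family), at 244 to 401 CPM after the herbicides against 617 to 656 CPM in water, and PGIP are apart from water, while the PME sum after halauxifen-methyl reaches 1323 CPM.

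HW_20255_g (PME31) and HW_42365_g (AT3G49220) fell with every herbicide. PME31 had 113, 90.5, 88.4 and 71.4 CPM after 2,4-D, 111, 109, 71.3 and 93.3 CPM after dicamba and 65.2, 49.7, 72.9 and 105 CPM after halauxifen-methyl, against 165, 172, 169.8 and 147 CPM in water. The groups did not overlap, and the log2 fold changes were -0.84 (SE 0.14, adjusted p = 0.0015), -0.75 (SE 0.18, adjusted p = 0.024) and -1.16 (SE 0.23, adjusted p = 0.0073). HW_42365_g had 44.3 to 68.5 CPM after 2,4-D, 17 to 48.8 CPM after dicamba and 50.8 to 63 CPM after halauxifen-methyl, against 66.5 to 122 CPM in water, with log2 fold changes of -0.76, -1.41 and -0.75 (adjusted p = 0.024, 0.019 and 0.034 in edgeR's test). The 2,4-D and water libraries overlapped. The calls of HW_42365_g were each lost without replicate 3 of water (adjusted p over the alternatives up to 0.09, 0.058 and 0.1), and that for halauxifen-methyl also without any 1 other library than replicate 4 of water. The dicamba call of PME31 was lost without replicate 2 or 3 of water or replicate 4 of dicamba (up to 0.077).

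The 3 genes that hit PME3 (AT3G14310), a PME of leaves and vascular tissue in Arabidopsis, moved differently. HW_46370_g and HW_46371_g lie next to each other on 1 contig of the deposited assembly and on the plus strand, at positions 22144 to 24640 and 26701 to 27775, and HW_49346_g lies on another contig. Genes of one family can share reads where their sequences are near-identical, and the counting mode is not given in the sources used here, so values of single copies are uncertain to that extent.

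HW_49346_g, the most abundant copy, had 180.1, 126, 198 and 226 CPM after 2,4-D, 207, 134, 124 and 238 CPM after dicamba and 538, 790.4, 575 and 442 CPM after halauxifen-methyl, against 277, 249, 308 and 164 CPM in water. It rose after halauxifen-methyl (log2 fold change 1.22, SE 0.24, adjusted p = 0.0071), where every library exceeded every water library. With 2,4-D the log2 fold change was -0.45 (adjusted p = 0.2) and with dicamba -0.49 (adjusted p = 0.35). HW_46370_g had 48.6, 64.1, 66.8 and 70.5 CPM after 2,4-D, 116, 129.7, 73.7 and 135 CPM after dicamba and 139, 122, 112 and 125 CPM after halauxifen-methyl, against 153, 169, 174 and 190.1 CPM in water. The water libraries were all above the herbicide libraries. The 2,4-D difference passed the test (log2 fold change -1.45, SE 0.14, adjusted p = 2.6e-05), and the dicamba (-0.57, adjusted p = 0.12) and halauxifen-methyl (-0.46, adjusted p = 0.0502) differences did not. At 1 HAT HW_46370_g had 34.3 to 43.4 CPM in water and 30.7 to 42.6 CPM after 2,4-D. The difference at 6 HAT was therefore measured against a higher control level.

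HW_46371_g had 27.3, 14.9, 22.4 and 31.6 CPM after 2,4-D, 26.2, 23.9, 209 and 31.4 CPM after dicamba and 32.8, 61.2, 51.4 and 29.3 CPM after halauxifen-methyl, against 19.2, 15.4, 9.27 and 16.8 CPM in water. It rose after halauxifen-methyl (log2 fold change 1.51, SE 0.29, adjusted p = 0.0066), a call lost in the fit of all 32 libraries (adjusted p = 0.1). The dicamba value of 2.25 (SE 0.66, adjusted p = 0.057) was set in large part by replicate 3. For 12 Arabidopsis loci more than 1 copy was tested with all 3 herbicides, 26 members in all. Log2 fold changes of both signs occurred among the copies with every herbicide at 4 of these loci and with none at 5, a description without a test of the difference between copies.

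**Figure D4:**
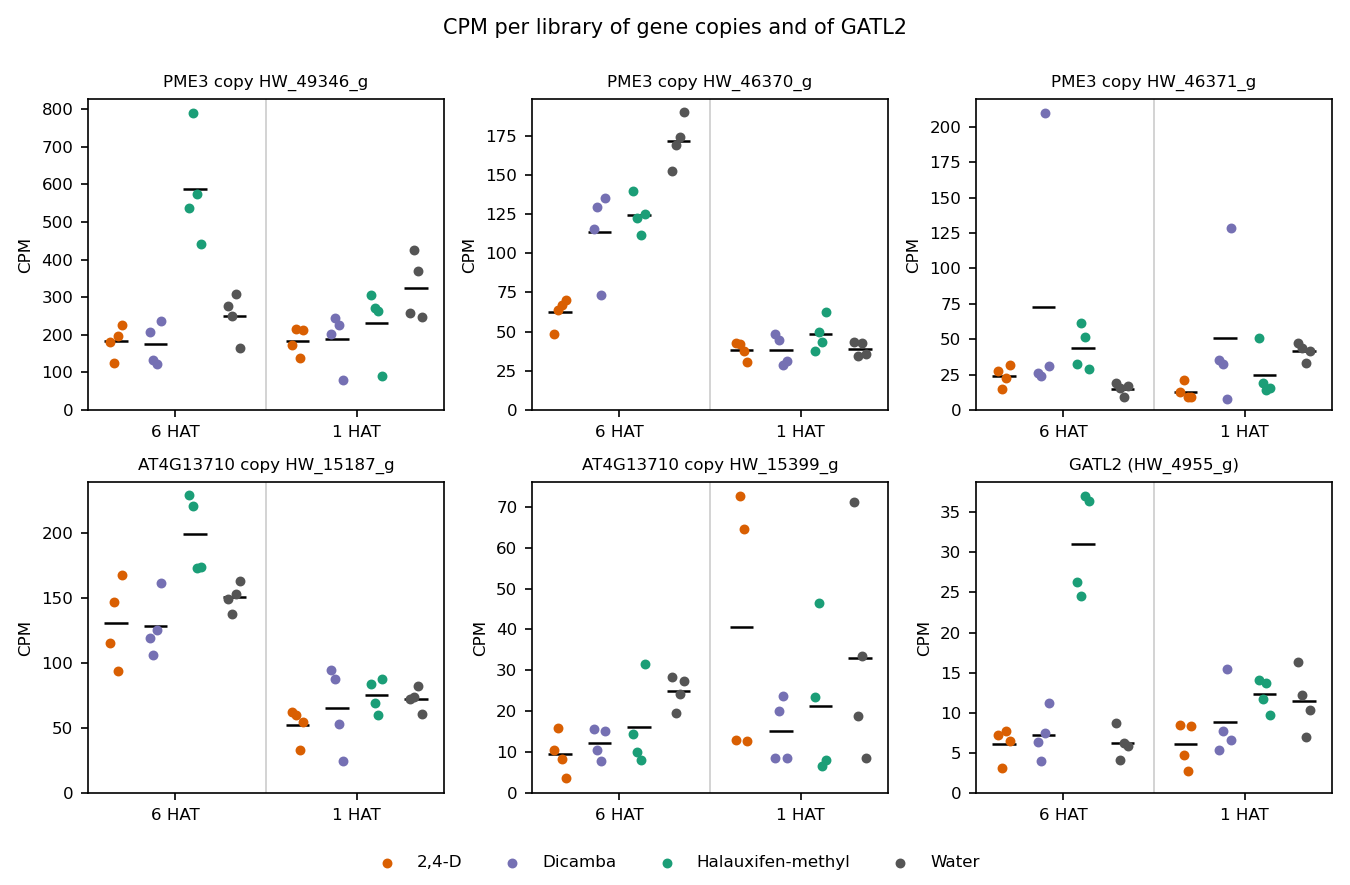
CPM per library of the 3 PME3 copies, of 2 AT4G13710 copies and of GATL2 in each group, with the mean of 4 libraries as a bar. At 6 HAT HW_49346_g and GATL2 are higher after halauxifen-methyl (442 to 790.4 CPM and 24.6 to 37 CPM) than in any other group of that time, and HW_46370_g is lowest after 2,4-D (48.6 to 70.5 CPM).

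Other PMEs changed with fewer herbicides. HW_19609_g (PMEPCRF) fell after 2,4-D, with 66.4, 85.1, 55.6 and 61 CPM against 110.3, 116, 171 and 121 CPM in water (log2 fold change -0.94, SE 0.18, adjusted p = 0.0034). HW_7343_g (AT2G45220) fell after 2,4-D, with 0 to 1.02 CPM against 2 to 8.12 CPM in water (log2 fold change -3.16, SE 0.95, adjusted p = 0.038). Its log2 fold changes of -1.92 after dicamba and -1.22 after halauxifen-methyl did not pass. Without replicate 1 of water they were -2.20 (adjusted p = 0.065) and -1.50 (adjusted p = 0.02 in edgeR's test), and the latter passed. HW_20763_g (AT2G26440) was nearly absent from water leaves, with 0, 0, 0 and 4 counts, and had 34, 59, 35 and 17 counts after 2,4-D, 32, 12, 24 and 121 counts after dicamba and 86, 44, 30 and 119 counts after halauxifen-methyl. Each herbicide library was above each water library. The test was passed after 2,4-D (adjusted p = 0.026) and halauxifen-methyl (adjusted p = 0.013) and missed after dicamba (adjusted p = 0.059). A fitted fold change against so few counts depends on the prior count and is not given. The 2,4-D calls of HW_7343_g and HW_20763_g were lost without replicate 2 or 3 of water, among others (adjusted p up to 0.13 and 0.11).

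Galacturonosyltransferases make the backbone. Of 10 tested, 1 fell after 2,4-D, where 9.41% of all genes fell, and 1 rose after halauxifen-methyl, where 8.55% rose, with class medians of 0.02, 0.06 and 0.25. HW_4955_g hits GATL2, a galacturonosyltransferase-like protein, and has a coding length of 351 bases. Its level was 7.28, 3.15, 7.7 and 6.52 CPM after 2,4-D, 6.39, 4, 7.53 and 11.2 CPM after dicamba and 26.4, 24.6, 37 and 36.4 CPM after halauxifen-methyl, against 8.77, 4.12, 6.26 and 5.91 CPM in water. The halauxifen-methyl libraries stood above all others of that time (log2 fold change 2.30, SE 0.28, adjusted p = 0.00054), while the values for 2,4-D (-0.03, adjusted p = 0.98) and dicamba (0.22, adjusted p = 0.87) did not pass. HW_8471_g (GATL3, coding length 338 bases) fell after 2,4-D, with 1.59, 0.777, 1.94 and 0.267 CPM against 4.83, 8.08, 11.3 and 5.36 CPM in water (log2 fold change -2.68, SE 0.63, adjusted p = 0.011). After dicamba it had 2.33, 1.68, 0.893 and 2.72 CPM, below every water library, and did not pass. Without replicate 1 of water the dicamba difference passed (log2 fold change -2.08, adjusted p = 0.026 in edgeR's test). After halauxifen-methyl its libraries ranged from 0 to 7.56 CPM, and it did not pass either way (without that replicate -1.81, adjusted p = 0.41). HW_38027_g (GATL7), the most abundant member of the class per kb, had log2 fold changes of -0.31, -0.57 and -0.38 that did not pass the test.

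Of the pectin acetylesterases, 3 were tested and 1 fell after 2,4-D, where 9.41% of all genes fell. HW_458_g (AT4G19420) had 29.6, 22.4, 21 and 23 CPM after 2,4-D against 26.2, 42.3, 39.9 and 68.8 CPM in water, groups that overlapped (log2 fold change -0.87, SE 0.25, adjusted p = 0.03). This call was lost without any 1 library other than replicate 1 of water or of 2,4-D (adjusted p up to 0.094). The 1 tested gene of the AT1G02816 group, HW_2238_g, did not pass with all libraries. Without replicate 1 of water it passed with every herbicide (log2 fold change -1.0, adjusted p = 0.013 after 2,4-D).

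At 1 HAT few members passed. After 2,4-D 0 of 68 tested members rose and 2 fell, against 0.898% of all genes that rose and 0.919% that fell. After dicamba 1 of 68 rose and 3 fell, against 1.23% and 1.19% of all genes. After halauxifen-methyl 0 of 68 passed in edgeR's quasi-likelihood test, DESeq2 and edgeR's exact test, where 0.176% of all genes rose and 0% fell. In the quasi-likelihood test 5 of the 68 members and 511 of all 14207 genes had an unadjusted p under 0.05. Median log2 fold changes over members were -0.12, -0.02 and -0.05, against 0.03, 0.00 and 0.00 over all genes. The herbicide and water libraries did not overlap for the 2 called members after 2,4-D and the 4 after dicamba, as for 99.6% and 96.8% of all called genes.

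GATL3 (HW_8471_g) was the 1 member called with both 2,4-D and dicamba at 1 HAT. Its level was 8.43, 9.8, 6.58 and 7.1 CPM after 2,4-D and 1.44, 7.53, 5.93 and 2.35 CPM after dicamba, against 18, 13.9, 23.4 and 19.9 CPM in water. The log2 fold changes were -1.22 (SE 0.25, adjusted p = 0.038) and -2.13 (SE 0.48, adjusted p = 0.044). HW_46371_g (PME3) had 12.9, 21.1, 8.95 and 9.05 CPM after 2,4-D against 47.4, 43.9, 33.6 and 41.5 CPM in water, a log2 fold change of -1.65 (SE 0.29, adjusted p = 0.018). No 2,4-D library reached the lowest water library in HW_46371_g. The GATL3 calls were lost without any 1 of the water replicates (adjusted p up to 0.69 after 2,4-D and 0.19 after dicamba over the alternatives), and that of HW_46371_g without replicate 1 or 2 of water or replicate 1, 3 or 4 of 2,4-D (up to 0.23).

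After dicamba, HW_3339_g (PME1) had 77, 70.0, 39.9 and 34.1 CPM at 1 HAT against 11.3, 15.9, 15.4 and 24.5 CPM in water, a log2 fold change of 1.72 (SE 0.32, adjusted p = 0.018). HW_3131_g (AT4G25260, an inhibitor of PMEs or invertases) had 93.3, 100.1, 77.8 and 42 CPM against 139.9, 257, 159 and 179 CPM in water (log2 fold change -1.23, SE 0.28, adjusted p = 0.044). HW_44739_g (AT3G55140, a pectate lyase) had 59.9, 60.6, 56.4 and 45.6 CPM against 75, 104, 92.2 and 108 CPM in water (log2 fold change -0.77, SE 0.18, adjusted p = 0.0499). Leaving out any 1 of the 8 libraries left 0 to 2 called members after dicamba, and 0 to 2 after 2,4-D, with 0 in both without replicate 2 of water. Over all genes the same fits called 1.21% to 2.61% after dicamba (2.42% with all libraries) and 0.918% to 2.37% after 2,4-D (1.82%). The HW_3339_g call was lost without replicate 1, 2 or 3 of water or replicate 1 or 2 of dicamba (adjusted p up to 0.074), that of HW_3131_g without any 1 library (up to 0.15), and that of HW_44739_g without any 1 library other than replicate 1 of water (up to 0.18).

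The difference between the herbicide effects at 6 and 1 HAT was tested as an interaction in 16 libraries for each herbicide. For 2,4-D 12 of 73 tested members passed (3 more positive, 9 more negative at 6 HAT), against 9.5% of all genes in either direction. For dicamba 7 of 76 passed (1 and 6), against 5.17%, and for halauxifen-methyl 11 of 77 (4 and 7), against 5.49%. The dicamba count was 11 without replicate 4 of dicamba at 1 HAT, where 5% of all genes were called, and the halauxifen-methyl count was 7 without replicate 3 of halauxifen-methyl at 1 HAT, where 3.92% were. PGIP1 had interaction values of 3.99, 2.47 and 2.98 on the log2 scale, the 2 AT4G23820 genes had values between -2.76 and -1.82, and HW_50247_g had -2.06, -2.19 and -2.05. For HW_44603_g the values were -1.88, -3.02 and -2.34, since its log2 fold change at 1 HAT was -0.06 for 2,4-D, 1.33 for dicamba and 1.27 for halauxifen-methyl, none of which passed the test.

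The controls themselves changed between the times. In water-treated leaves, 5 of 64 tested members were higher at 6 HAT than at 1 HAT and 8 were lower, against 6.44% of all genes that were higher and 7.42% that were lower. The groups did not overlap for 9 of the 13, or 69.2%, against 92% of all called genes. Without replicate 3 of water at 1 HAT 8 members were called, and calls over all genes were then also fewer, at 9.52% against 13.9% with all libraries. The PME3 copy HW_46370_g had 153, 169, 174 and 190.1 CPM at 6 HAT against 43.4, 34.3, 42.7 and 35.9 CPM at 1 HAT (log2 fold change 2.11, SE 0.15, adjusted p = 1.6e-05). The inhibitor HW_3131_g moved the other way, with 17, 22.8, 19.9 and 24.4 CPM at 6 HAT against 139.9, 257, 159 and 179 CPM at 1 HAT (log2 fold change -3.15, SE 0.22, adjusted p = 1.6e-05). HW_44603_g was higher at 6 HAT (log2 fold change 2.38, SE 0.30, adjusted p = 0.00046) and HW_28609_g lower (log2 fold change -2.52, SE 0.29, adjusted p = 0.00025). The times differ in the hours since treatment and in the time of harvest, which cannot be told apart.

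Herbicides were also compared with each other, without the water libraries. At 6 HAT, 2 of 64 tested members were higher and 5 lower after 2,4-D than after halauxifen-methyl, against 8.04% of all genes in either direction, and 0 of 62 were higher and 2 lower after dicamba than after halauxifen-methyl, against 0.489%. Between 2,4-D and dicamba 0 of 65 members passed in edgeR's quasi-likelihood test, against 0.519% of all genes. An unadjusted p under 0.05 in that test was found for 5 of the 65 members and 1210 of all 14462 genes. DESeq2 and the exact test each called 1 member. The 95% intervals of these log2 differences had a median half-width of 0.88 for 2,4-D against dicamba, so the tests left differences of that size possible for a typical member. For 2,4-D against halauxifen-methyl, 4 members were called without 2,4-D replicate 3 or 4 or halauxifen-methyl replicate 1, and 12 without halauxifen-methyl replicate 4, where 4.68% to 6.05% and 11.8% of all genes were called. For dicamba against halauxifen-methyl, 0 were called without dicamba replicate 1 or halauxifen-methyl replicate 1, 2 or 3, and 1 without dicamba replicate 2, where 0.152% to 0.283% of all genes were called. For 2,4-D against dicamba, 1 was called without dicamba replicate 3, where 1.06% of all genes were.

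GATL2 showed the greatest difference, with a log2 fold change of -2.35 (95% interval -2.98 to -1.72, adjusted p = 0.00071) for 2,4-D and -2.06 (-2.76 to -1.36, adjusted p = 0.021) for dicamba against halauxifen-methyl. HW_49346_g (PME3) differed by -1.68 (-2.15 to -1.21, adjusted p = 0.00091) and -1.70 (-2.29 to -1.12, adjusted p = 0.021) in the same comparisons. Between 2,4-D and halauxifen-methyl, HW_19609_g differed by -1.27 (-1.64 to -0.90), HW_46370_g by -1.0 (-1.33 to -0.67), HW_27072_g (PMEPCRB) by -2.18 (-3.46 to -0.89), HW_44903_g (AT1G80170) by 0.77 (0.35 to 1.2) and HW_51770_g by 0.41 (0.17 to 0.65). PGIP1 was higher after 2,4-D than after halauxifen-methyl by 0.66 (0.21 to 1.12), which did not pass after adjustment (adjusted p = 0.083 in edgeR's test). The smallest p between 2,4-D and dicamba belonged to HW_46370_g, with -0.88 (-1.34 to -0.42, adjusted p = 0.15).

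**Figure D5:**
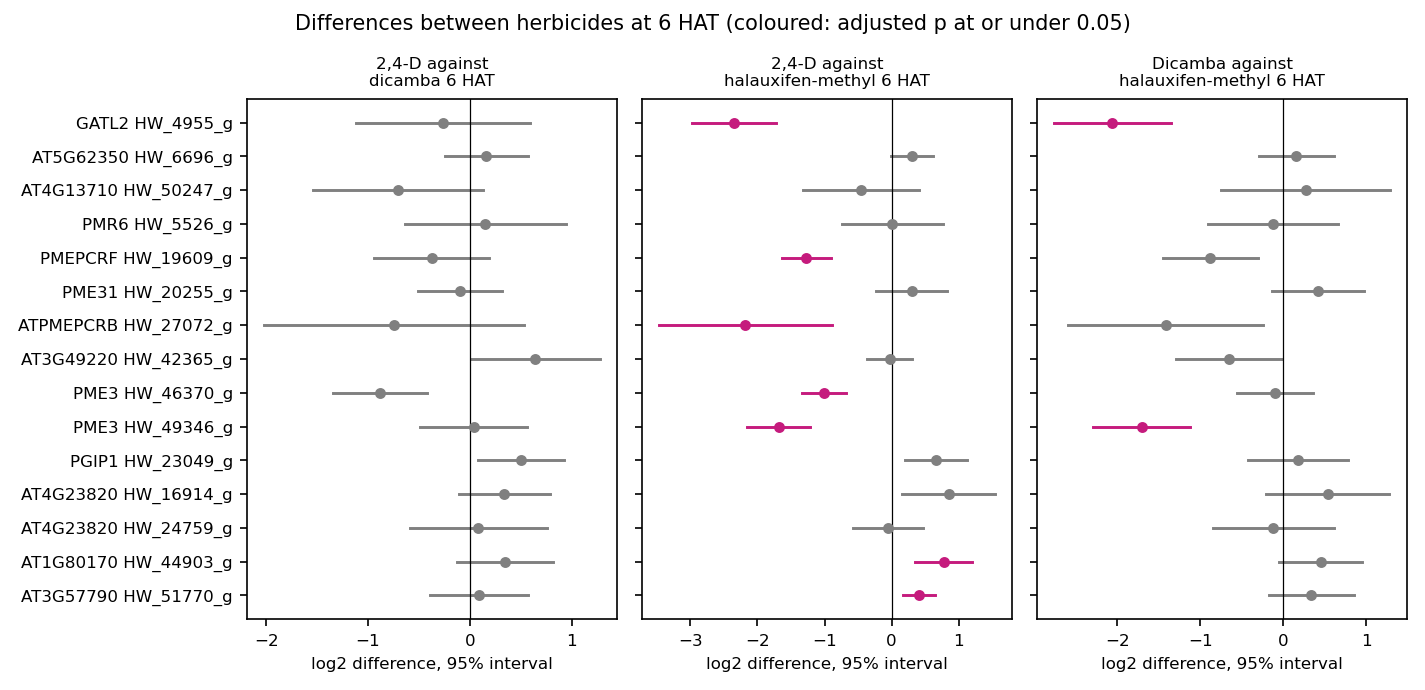
Log2 difference between 2 herbicides at 6 HAT, with its 95% interval, for members called with all 3 herbicides or between herbicides and tested in the pairs. Coloured points passed an adjusted p of 0.05. Intervals of GATL2 and HW_49346_g lie below 0 for 2,4-D and for dicamba against halauxifen-methyl, and that of GATL2 reaches from -2.98 to -1.72 for 2,4-D.

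At 1 HAT 0 members passed in edgeR's quasi-likelihood test for any pair of herbicides. Of 69 members tested between 2,4-D and dicamba, 7 had an unadjusted p under 0.05 in this test, against 2323 of all 14398 genes. After adjustment 0.208% of all genes passed, and DESeq2 called 4 members and the exact test 2. Of 72 tested between 2,4-D and halauxifen-methyl, 8 had an unadjusted p under 0.05, against 1184 of all 14535 genes. After adjustment 0.475% of all genes passed, with 0 members in DESeq2 and 0 in the exact test. Of 71 tested between dicamba and halauxifen-methyl, 7 had an unadjusted p under 0.05, against 934 of all 14365 genes. After adjustment 0.355% of all genes passed, with 1 member in DESeq2 and 0 in the exact test. The median half-widths of the 95% intervals were 1.12, 1.08 and 1.32.

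Other genes of the pectin pathway, outside the rule for members, were read from the same fits at 6 HAT. Of 12 tested genes for UDP-sugar supply, the donors of pectin synthesis, 3 rose and 3 fell after 2,4-D, 2 rose and 3 fell after dicamba, and 3 rose and 3 fell after halauxifen-methyl. Within the epimerases that make UDP-galacturonic acid, HW_27919_g (GAE6) had log2 fold changes of -1.55, -1.33 and -1.63 and HW_17669_g (GAE3) of 1.21, 1.35 and 1.67, and both passed with every herbicide. HW_15336_g (GAE2) also passed with every herbicide, at -0.91, -0.86 and -0.76. The rhamnose synthase gene HW_14436_g (RHM1) rose by 0.66, 0.93 and 1.21. Of 9 tested methyltransferases and side chain enzymes, 1 rose and 5 fell after 2,4-D, against 10.3% and 9.41% of all genes. After dicamba 0 passed, where 5.64% of all genes rose and 3.96% fell. After halauxifen-methyl 1 fell, against 6.13% of all genes. The 5 were the homogalacturonan methyltransferases CGR2 (-1.04), CGR3 (-0.77) and QUA2 (-0.61) and the RRT1 copies HW_21322_g (-0.66) and HW_48641_g (-0.55). The gene that rose was a further RRT1 copy, HW_18432_g (0.97). Whether the herbicides differed in these genes was not tested here. Of the wall-associated kinases, receptors that bind pectin, 74 genes were in the table, 43 had counts and 10, 10 and 9 were tested with 2,4-D, dicamba and halauxifen-methyl, with median log2 fold changes of -0.77, 0.37 and 0.17. After 2,4-D 1 rose, against 10.3% of all genes, after dicamba 0, and after halauxifen-methyl 2, against 8.55%, and 0 fell in each. HW_1862_g (WAK2) rose after 2,4-D (2.43, adjusted p = 0.016) and halauxifen-methyl (2.79, adjusted p = 0.0075), and HW_50732_g (WAK5) after halauxifen-methyl (1.71, adjusted p = 0.035).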

How the data were processed

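According to the submitters' processing notes and the study's methods, the authors checked reads with FastQC 0.11.2, aligned them with STAR 2.5.2b to a draft genome and counted them per predicted gene with HTSeq 0.6.1. The deposited values are these raw counts, without normalization. The counting mode and strand setting are not given in the sources used here, and the gene models hold coding exons only, so lengths are coding lengths.

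Each herbicide was compared with water of its time in 8 libraries with edgeR 4.0.16 in R 4.3.3 (limma 3.58.1): TMM normalization, filterByExpr (minimum count 10), quasi-likelihood test, Benjamini-Hochberg adjustment over all tested genes and a threshold of 0.05. CPM are relative to TMM-normalised totals. A count of 0 allows up to 3 counts, which is 0.113 to 0.285 CPM over the libraries and covers counting error only. The scripts were tested on simulated data. Alternatives were DESeq2 1.42.0, edgeR's exact test, DESeq2 size factors, 2 other count filters, a fit of all 32 libraries, the replicate number as a block and leaving out each library. Figures were drawn with matplotlib 3.10.9.

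The members and lists were chosen with earlier results of these data known. Named were members called at 1 HAT or with all 3 herbicides at 6 HAT, the member of each class with the largest change in each direction and comparison at 6 HAT, the 2 highest per class by CPM per kb, and up to 5 members with the smallest p in each interaction, pair or water comparison. HW_31909_g, HW_15399_g, HW_11606_g, HW_17486_g, HW_12708_g, HW_10929_g, HW_26105_g and HW_27072_g fall outside this rule and were named after their values were seen.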

Additional observations from a re-analysis of the deposited data

Results flagged for a closer look

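In 80 groups of 4 libraries tested for a library far from the others, 3 held one, where chance gives about 1 in 20. HW_23172_g was at 0.71 CPM in replicate 1 of dicamba at 6 HAT, with the nearest library at 0.0558 CPM. HW_46371_g (PME3) was at 51.1 CPM in replicate 1 of halauxifen-methyl at 1 HAT, with the nearest at 19.1 CPM. HW_6696_g was at 584 CPM in replicate 1 of halauxifen-methyl at 6 HAT, with the nearest at 485 CPM. The 80 groups did not cover every group of the named members, and wide gaps also occurred outside them. The 3 of 80 is therefore not a rate over all groups of the named members. HW_46371_g was at 209 CPM in replicate 3 of dicamba at 6 HAT, with the nearest at 31.4 CPM. In replicate 4 of dicamba at 1 HAT, HW_50247_g was at 10.8 CPM (nearest 41.7) and HW_51770_g at 41.7 CPM (nearest 70.4).

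The effect of a herbicide against water differed between 6 and 1 HAT, by the interaction test, for the following members, with the difference of log2 fold changes (6 minus 1 HAT). For 2,4-D the values were 3.99 for PGIP1 (HW_23049_g), 2.34 for HW_46371_g and 1.04 for HW_51770_g. They were -2.05 for HW_16914_g, -1.82 for HW_24759_g, -2.06 for HW_50247_g, -1.42 for HW_46370_g, -1.88 for HW_44603_g, -0.87 for HW_20255_g, -1.60 for HW_5526_g, -2.81 for HW_11606_g and -3.27 for HW_23172_g. For dicamba they were 2.47 for PGIP1, -3.02 for HW_44603_g, -1.91 for HW_16914_g, -5.66 for HW_23172_g, -2.22 for HW_24759_g, -2.19 for HW_50247_g and -2.15 for HW_31909_g. For halauxifen-methyl the positive values were 2.98 for PGIP1, 2.18 for HW_4955_g, 2.23 for HW_46371_g and 1.68 for HW_49346_g. The negative ones were -2.76 for HW_16914_g, -1.98 for HW_24759_g, -2.05 for HW_50247_g, -1.35 for HW_6696_g, -1.84 for HW_5526_g, -2.34 for HW_44603_g and -1.78 for HW_17486_g. The 3 interactions share the water libraries.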

How the results depend on the processing

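Over the 58 calls of members in the comparisons with water, 0 of 861 values under an alternative changed sign, and 33 calls held under every alternative. Leaving out 1 library ended 123 of 464, the replicate block 16 of 58, the fit of all 32 libraries 12 of 58 and the absence of a low-count filter 1. The 12 lost with all 32 libraries were those of HW_8471_g with 2,4-D and dicamba and HW_46371_g with 2,4-D at 1 HAT, and at 6 HAT those of HW_15399_g with 2,4-D and dicamba, HW_20763_g and HW_31909_g with 2,4-D, HW_42365_g with 2,4-D and halauxifen-methyl, and HW_11606_g, HW_17486_g and HW_46371_g with halauxifen-methyl.

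Counts of called members moved as follows. With DESeq2, which was run with its own filtering in place of the low-count filter, on 118 to 123 members in these comparisons (64 to 71 with that filter), they were 4 (2 in the quasi-likelihood test) for 2,4-D and 7 (4) for dicamba at 1 HAT, 23 (14; 3 higher and 20 lower) for dicamba at 6 HAT, 4 (0) for 2,4-D against dicamba and 1 (0) for dicamba against halauxifen-methyl at 1 HAT, and 1 (0) for 2,4-D against dicamba and 11 (7) for 2,4-D against halauxifen-methyl at 6 HAT. On the same unfiltered genes the quasi-likelihood test gave 3, 5, 14, 3, 0, 1 and 6, and the shares of all genes called were 2.87%, 4.04%, 9.14%, 3.97%, 0.848%, 1.15% and 7.54% with DESeq2 against 1.61%, 2.85%, 6.73%, 1.93%, 0.579%, 0.686% and 5.01% with the quasi-likelihood test. The exact test gave 2 and 1 for 2,4-D against dicamba at 1 and 6 HAT. The fit of all 32 libraries gave 0 for 2,4-D at 1 HAT, 1 each for 2,4-D against dicamba at 1 and 6 HAT and dicamba against halauxifen-methyl at 1 HAT, and 4 for 2,4-D against halauxifen-methyl at 6 HAT. The cause was not tested. With 1 library left out, the counts ranged from 0 to 2 for 2,4-D, 0 to 2 for dicamba and 0 to 0 for halauxifen-methyl at 1 HAT, from 15 to 30, 9 to 16 and 13 to 21 at 6 HAT, from 8 to 13 for water, from 8 to 11, 6 to 11 and 7 to 12 for the interactions, and from 0 to 1, 4 to 12 and 0 to 2 for the pairs at 6 HAT.

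Replicate numbers were not used as pairs in the main fits. Correlations of same-numbered deviations ran from -0.237 to 0.339, and 0 comparisons had every pair over 0.1. Between groups of 1 HAT those of replicate 4 were all positive, from 0.0406 to 0.339, and a pairing of part of the libraries was not tested. With the replicate block, 1, 0 and 1 members were called at 1 HAT, 16, 11 and 14 at 6 HAT, 10 for water, 8, 7 and 12 for the interactions, 0 for the 3 pairs at 1 HAT, and 0, 4 and 1 for the pairs at 6 HAT. Members with few counts could not be tested, and 71 with counts entered no test. The plants are the replicates, and 4 per group limit what each comparison can show.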

Other observations

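Pollen markers were checked because many pectin enzyme genes are pollen genes in Arabidopsis. Their 9 genes summed to 67.4 to 405 CPM per library, of which the 1 gene for ACA9 made up most, with 89571 counts in all and up to 385 CPM. The 4 ROPGEF12 genes had 6027 counts, the 2 CPK17 genes 250, CPK34 39 and DUO1 10, and 0 genes hit STP9 or PRK2. At 6 HAT the sum was 70.7 to 91 CPM after 2,4-D, 82.8 to 116 CPM after dicamba and 105 to 126 CPM after halauxifen-methyl, against 67.4 to 84.7 CPM in water. Of 2 pollen markers tested with each herbicide, 1 rose after halauxifen-methyl, where 8.55% of all genes rose. It was HW_35499_g (ACA9, log2 fold change 0.69, adjusted p = 0.006 in edgeR's test). Of the genes for xylem and secondary walls, 0 of the 3 tested passed in edgeR's test against water, and their 7 genes summed to 9.6 to 39 CPM in the herbicide libraries of 6 HAT, against 20.2 to 32.8 CPM in water. The 7 rhamnogalacturonan lyase genes, which cut the branched part of pectin, summed to 15 to 64.2 CPM in herbicide libraries of 6 HAT, against 39.9 to 55.1 CPM in water, and HW_14494_g of this list fell after halauxifen-methyl (log2 fold change -1.03, adjusted p = 0.049 in edgeR's test).

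Members without counts often shared exon lengths with other genes. Among members with more than 1 exon, 29 of 74 without counts (39.2%) and 10 of 119 with counts (8.4%) had the same series of exon lengths as another gene, against 19.8% and 7.9% of all genes.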
